A study of Mus musculus with 5 samples.

Results

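The 2 libraries of the histone mutant K36M were compared with the single wildtype (WT) library of a mouse reduced representation bisulfite sequencing series, in which 3 of 5 libraries belong to this comparison. The members are stretches of 1 kb of the autosomes, called tiles, that held 3 or more CpGs whose second count, the part of the deposited total that is not methylated counts, was 10 or higher in each of the 3 libraries. They numbered 160386 of the 722528 autosomal tiles with any listed CpG, and they held 1718313 CpGs. The WT library is labelled wildtype, with no treatment stated for it. The K36M libraries carry a dominant negative histone H3.3 with methionine in place of lysine 36, and their mice drank water with 2 mg/ml doxycycline to induce it. The 2 K9M libraries, with the same kind of mutant at lysine 9 and the same doxycycline, served as a reference whose values were not used to call tiles, and entered only the alternative fits named as such. Genotype and doxycycline cannot be told apart between K36M and WT. Strain, age, sex and the promoter that drives the mutant histone are not stated, and the source label is HSCs, for hematopoietic stem cells, whereas sorting from blood is described in the protocol. The cell type could not be checked against marker genes, because no gene annotation of the build of the files, mm9, was used here.

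DNA methylation at CpGs is written by the enzymes DNMT3A and DNMT3B and copied at replication by DNMT1. The PWWP domains of DNMT3A and DNMT3B bind histone H3 methylated at lysine 36, a mark laid down by NSD1, NSD2 and SETD2 over gene bodies and wide intergenic domains. A methionine at lysine 36 inhibits these methyltransferases, so that the mark falls also on the histones that are not mutant. Most mammalian CpGs are methylated, while CpG islands, the CpG-dense stretches at many promoters, stay unmethylated, and the borders next to them are called shores. DNMT3A is a regulator of self-renewal and differentiation in blood stem cells, where it is often mutated in blood disease.

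The deposited totals over all CpGs were 174743796 in WT, 133165295 in K36M replicate 1 and 165100774 in K36M replicate 2. The median second count per CpG among those that passed was 42, 33 and 40 in the same order. CpGs at 98% or more in K9M replicate 2 had a median deposited level of only 54.3% in WT and 53.2% and 55.0% in K36M, so that these libraries do not hold a plain fraction of methylated reads. The level used here is the methylated count divided by the rest of the deposited total, which is the second count, and then by the plateau of the library, its median over the 20% of tiles that ranked highest. The plateau was 1.24 in WT, 1.23 in K36M replicate 1 and 1.26 in K36M replicate 2. This relative level, in percent of the plateau, can exceed 100%, and a change shared by every CpG of a library would not be seen in it. Whether the K36M replicates came from different mice is not stated. The p-values therefore speak of the spread among these samples alone, and that spread may be technical.

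The relative level was lower in both K36M libraries than in the WT library, and the gap was widest at tiles of middle level. Over the 1861472 CpGs that passed, the pooled relative level was 42.8% in WT, 41.5% in K36M replicate 1 and 41.6% in K36M replicate 2. The difference of -1.24 points was larger than the replicate SD of 0.0604 points (n = 2), and an exact two-sided permutation test gave p = 0.333, the smallest that 2 libraries against 1 allow. The tiles were then sorted by their mean level in the 2 K9M libraries, which are independent of the libraries compared. At 16708 tiles with 20% to 80% in K9M, the mean level was 55.4% in WT and 49.7% ± 0.113 (SD, n = 2) in K36M, with the replicates at 49.6% and 49.8%. K9M, whose values set this class, stood at 56.5% ± 1.62 (SD, n = 2) there, with its replicates at 55.3% and 57.6%, and WT lay between them. Both K36M libraries lay below all 3 other libraries at these tiles, while WT itself has no replicate to give its error.

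The difference from WT grew and shrank smoothly along the scale of levels. At 19608 tiles under 2% in K9M, WT was at 0.653% and K36M at 0.794% and 0.683%, so that nearly unmethylated tiles were not lower in either K36M library. At 10% to 20%, WT stood at 14.4% and K36M at 12.8% and 12.2%. At 60% to 70%, the gap was widest, with 63.99% in WT against 57.1% and 57.2% in K36M. At 90% to 100%, WT was at 92.9% and K36M at 89.5% and 91.8%, where the 2 K36M libraries differed from each other by as much as their mean differed from WT. Over all 105546 tiles above 80% in K9M, the difference from WT was -3.23 points in K36M replicate 1 and -1.34 points in replicate 2. When the plateau was taken from the top 40% of tiles, their mean of -2.29 points became -1.15 points, and it became -3.16 points for the top 10%, so the size of a loss in highly methylated DNA depended on the scaling.

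**Figure D1:**
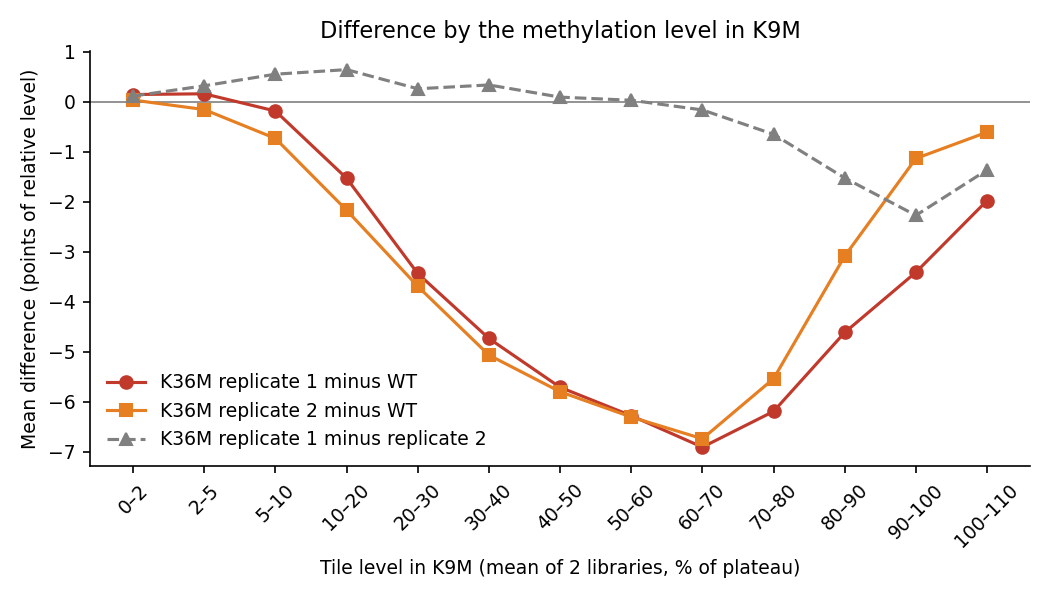
Mean difference in relative level (points, y axis) by the tile's mean level in the 2 K9M libraries (percent of plateau, x axis) for each K36M library against WT, with the difference between the K36M libraries as a dashed line. Both K36M lines reach their lowest values at 60% to 70%, while the dashed line stays near 0 up to that level and drops to about the size of the difference from WT above 90%.

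The difference at tiles of middle level was spread over many tiles. The median difference from WT at tiles with 20% to 80% in K9M was -4.29 points, and the median difference between the K36M replicates was -0.227 points. A drop of 10 points or more was seen at 28.9% of these tiles and a rise of 10 points or more at 4.91%. The 5th and 95th percentiles of the difference from WT were -26.4 and 9.92 points, and those of the difference between the K36M replicates were -15.2 and 15.1 points. The spread to either side of 0 was thus even between replicates and uneven against WT. Leaving out the tiles that were called in the test of single tiles, WT stood at 55.9% and K36M at 51.4% and 51.6%, a mean difference of -4.43 points.

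**Figure D2:**
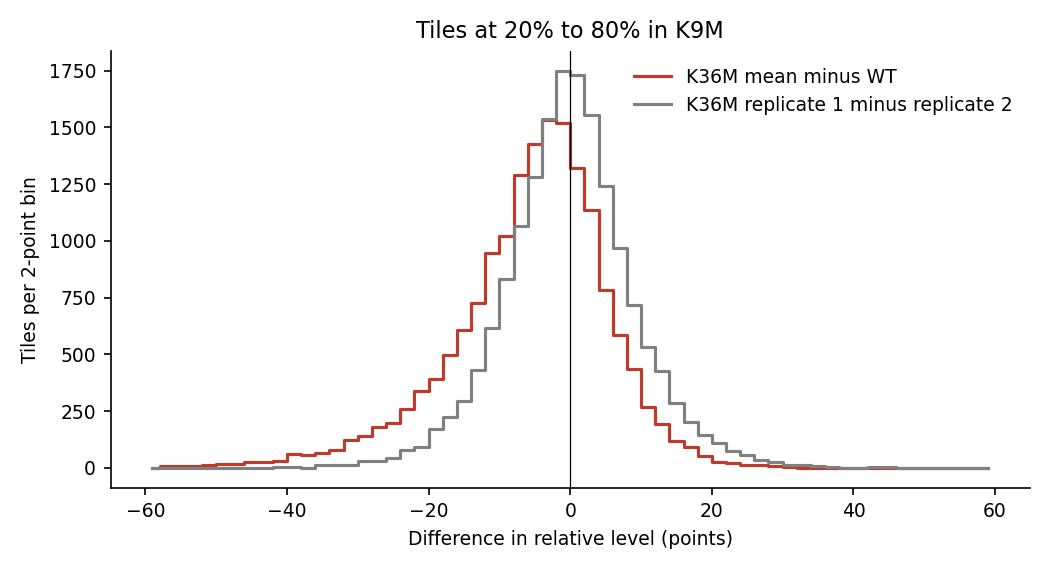
Number of tiles per 2-point bin (y axis) by difference in relative level (points, x axis) at the 16708 tiles with 20% to 80% in K9M. The difference of the K36M mean from WT leans to the left of 0, with a median of -4.29 points, and the difference between the 2 K36M libraries is centred near 0.

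Within the middle level, tiles of each class of CpG number stood below WT. Tiles with 20% to 80% in K9M and 3 to 9 CpGs stood at 56.8% in WT and 50.9% ± 0.128 (SD, n = 2) in K36M, a difference of -5.90 points. With 10 to 19 CpGs the values were 50.3% in WT and 45.5% ± 0.209 (SD, n = 2) in K36M. With 20 to 39 CpGs they were 47.1% and 42.0% ± 0.542 (SD, n = 2), a difference of -5.07 points, so that CpG-rich tiles of middle level also stood below WT. The 125 tiles of this level with 40 or more CpGs had the smallest difference, from 38.2% in WT to 35.7% and 35.2% in K36M. Among unmethylated tiles, those under 20% in K9M, the 8177 tiles with 40 or more CpGs were at 1.37% in WT and 1.47% ± 0.137 (SD, n = 2) in K36M, which is within the replicate spread. The same class with 3 to 9 CpGs stood at 5.29% in WT and 4.64% ± 0.208 (SD, n = 2) in K36M. Over all levels, tiles with 40 or more CpGs differed from WT by 0.0470 points, less than the SD of 0.110 points, and tiles with 3 to 9 CpGs by -2.91 points with an SD of 0.959 points. The direction of the dense class was not stable, at -0.0310 points without K36M replicate 1 and -0.0185 points when the top 10% of tiles set the plateau.

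Distance from CpG islands was read without an annotation, from 8177 island-like tiles, which had 40 or more CpGs and less than 20% in K9M. Unmethylated tiles with fewer measured CpGs did not count, among them 7578 with 20 to 39 CpGs and less than 20% in K9M. Tiles beside such DNA can therefore stand in the far class. Among tiles with 20% to 80% in K9M, those 1 kb away stood at 42.9% in WT and 37.5% in both K36M libraries. The 1496 tiles at 2 to 8 kb stood at 52.0% in WT and 44.3% and 44.2% in K36M, and the 8011 tiles farther than 64 kb at 58.4% in WT and 54.0% and 54.3% in K36M. The difference from WT was therefore -7.82 points at 2 to 8 kb, called close here, and -4.26 points beyond 64 kb, called far. It was -5.37 points at 1 kb, -7.00 at 17 to 32 kb and -6.78 at 33 to 64 kb. The nearest tiles thus did not differ most, and the smallest difference lay beyond 64 kb. Within each library, the close tiles differed from the far ones by -6.39 points in WT, by -9.71 and -10.2 points in the K36M libraries, and by a mean of -4.88 ± 0.395 points (SD, n = 2) in K9M. Both K36M libraries had a wider gap than WT and both K9M libraries, which set the class, a narrower one, and an exact test of 2 libraries against 1 cannot give a p below 0.333. The close and far differences were -7.46 and -3.65 points when the top 40% of tiles set the plateau. The median CpG number was 5 in tiles at 2 to 64 kb and in those farther away, and 7 at 1 kb.

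**Figure D3:**
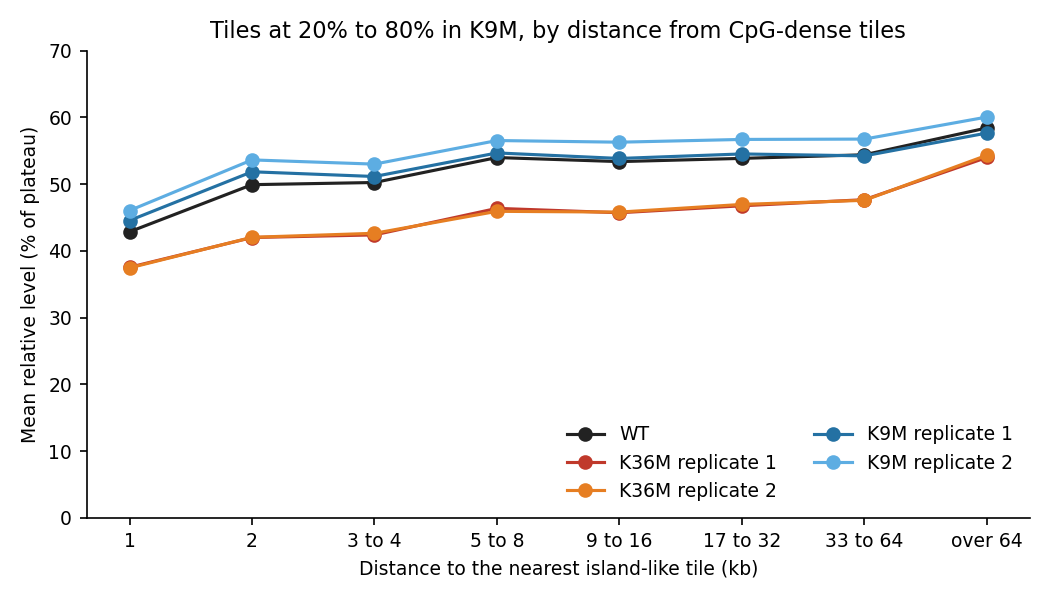
Mean relative level (percent of plateau, y axis) in each of the 5 libraries by distance to the nearest island-like tile (kb, x axis), for tiles with 20% to 80% in K9M. The 2 K36M lines overlie each other below the WT and K9M lines at every distance, and the gap to WT narrows beyond 64 kb.

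Single tiles were tested with a logistic model of methylated and second counts whose replicate dispersion was moderated with limma, and calls needed 10 points or more of difference beside a Benjamini-Hochberg adjusted p under 0.05. K36M was lower at 1350 of 160386 tiles, which is 0.842% of those tested, and higher at 55 tiles, which is 0.0343%, or 0.876% in either direction. Losses made up 96.1% of calls. At an unadjusted p under 0.05 in this model, 6825 tiles were lower and 1868 higher, or 8693 of 160386 together. A calibrated test would pass a share of 0.05 of unchanged tiles at that threshold, so the total alone does not show a difference. With all 5 libraries in 1 fit, 697 tiles were lower and 19 higher. Without K36M replicate 1 or 2, with the K9M libraries kept for the spread, 520 and 342 tiles were lower and 32 and 9 higher.

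The called losses were deep relative to where they started. Their mean level was 49.2% in WT, 21.6% in K36M replicate 1 and 21.3% in K36M replicate 2, values which were used to call them and are given as a description. The middle 50% of losses lay between -35.7 and -17.8 points, with a median of -26.5 points, and the level left in K36M was 40.3% of that in WT at the median tile. K36M fell under 5% at 214 of the 1350 tiles and under 10% at 406. WT was under 20% at 161 of them, at 20% to 40% at 382, at 40% to 60% at 347, at 60% to 80% at 301 and above 80% at 159. Both K36M libraries were at least 10 points below WT at 1310 tiles, and their own levels differed by 2.86 points at the median.

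K9M took no part in the calls, but WT and K36M did, so the order of the libraries at called tiles is a description. At the 1323 losses with K9M values, the mean level was 49.4% in K9M replicate 1 and 50.1% in replicate 2. K9M was closer to WT than to K36M at 1147 of these losses and closer to K36M at 176. Both K36M libraries lay below both K9M libraries at 94.7% of the losses, against 36.2% of all tiles with K9M values. The share was 45.6% at tiles with 20% to 80% in K9M. The reverse order held at 10.0% of all tiles with K9M values. The 55 gains stood at 23.1% in WT, 47.8% and 51.1% in K36M, and the K9M libraries stood at 42.2% and 40.2%. There K9M was closer to K36M at 35 tiles and closer to WT at 20, and both K36M libraries lay above both K9M libraries at 22 of them. With 1 WT library, an extreme WT value at a tile and a change in K36M cannot be told apart.

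Tiles were also chosen with 1 K36M library and read in the other, both set against the same WT library. At 475 tiles where K36M replicate 1 was at least 40 points below WT, the mean level was 93.4% in WT, 46.5% in that library and 54.2% in K36M replicate 2. K9M replicates 1 and 2 stood at 80.8% and 82.5% there, below WT and far above both K36M libraries. Chosen with K36M replicate 2 instead, 459 tiles stood at 93.9% in WT and at 55.0% in K36M replicate 1. In both choices the library that had not chosen the tiles stood nearer to the one that had than to WT. Since WT entered every choice, these values are a description.

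The CpGs of a lost tile are those whose summed counts called it, so their values only describe how the loss was shared out. Of the 11671 CpGs in lost tiles, 10210, or 87.5%, were lower in both K36M libraries than in WT. In tiles that were not called, 28.2% of CpGs were lower in both and 17.9% higher in both. Every measured CpG was lower in both K36M libraries at 825 of 1350 lost tiles, and fewer than 50% of them at 23. Tiles 1 kb from a lost tile that were not themselves called stood at 51.5% in WT and 44.9% and 45.4% in K36M, a difference of -6.38 points over 659 tiles. The difference was -4.08 points at 2 kb, -4.93 at 3 kb, -4.45 at 5 kb, -3.52 at 10 kb and -3.39 at 20 kb, without a steady decline. These tiles were of any level and averaged 51.5% to 63.3% in WT. All tiles of any level and place averaged 71.3% in WT and differed by -2.33 points. Uncalled tiles with 20% to 80% in K9M, at any place, differed by -4.43 points. The part of level in the difference near lost tiles was not tested.

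Tiles with 20% to 80% in K9M were called lower at 57.3 per 1000 and those over 80% at 1.80. Tiles under 20% in K9M averaged 3.12% in WT, so that most had no room for a drop of 10 points, and their rate of calls says nothing on loss there. Within the middle class, the rate was 51.0 per 1000 at 3 to 9 CpGs and 86.0 at 10 to 19, and reached 91.5 at 20 to 39 against 72.0 in the densest class. In the middle class 2 to 8 kb from an island-like tile, 10.9% of tiles were called lower, and farther than 64 kb 3.61%. The rate was 67.3 per 1000 at 1 kb and 68.2 per 1000 at 33 to 64 kb. Depth moved with these rates. From the shallowest to the deepest of 4 groups of middle-level tiles by second count per CpG in WT, 34.1, 47.0, 63.0 and 85.4 per 1000 were called lower, while the mean difference went from -7.52 to -4.49 points. The part of depth in the calls by class was not tested.

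Among sparse tiles, with 3 to 9 CpGs, the 3 largest losses went from nearly full methylation to little. On chromosome 1 from 78691001 to 78692000, WT was at 99.6% (95% counting interval 78.4% to 127%, exact binomial), K36M at 14.4% and 16.7% and K9M at 82.6% and 93.6%. Its 4 CpGs sit within 56 bp and ranged from 73.7% to 106% in WT, from 2.63% to 25.7% in K36M replicate 1 and from 9.60% to 23.4% in replicate 2, with no overlap. On chromosome 9 from 114649001 to 114650000, K36M stood at 15.02% and 22.5%, WT at 103% and K9M at 97.2% and 95.7%, and the highest of 6 CpGs in K36M, 44.97%, was below the lowest in WT, 87.6%. On chromosome 1 from 74065001 to 74066000, the level was 86.2% in WT and 5.65% in K36M replicate 1. The second K36M library had 0 methylated counts, a floor of 4.75% at 3 counts. K9M lay between, at 58.9% and 59.2%, and the WT value rests on 14.7 second counts per CpG, with a counting interval of 55.9% to 133%. Adjusted p-values from the logistic model moderated with limma were 2.48e-06, 3.83e-07 and 4.17e-05. Counting intervals cover counting error only, since reads without molecular identifiers are not independent molecules.

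Among tiles with 10 to 19 CpGs, the 3 largest losses spanned 339 to 551 bp between outer CpGs. The tile on chromosome 8 from 87245001 to 87246000 stood at 61.2% in WT, 3.62% and 3.48% in K36M, and the K9M libraries stood at 81.7% and 93.2%. All 15 of its CpGs, over 422 bp, were lower in both K36M libraries than in WT. Their levels reached at most 18.3% in K36M replicate 1 and 11.7% in replicate 2, whereas WT ranged from 4.75% to 90.8% and K9M replicate 2 from 48.8% to 106%. Its adjusted p, 2.01e-10 in the limma-moderated logistic model, was the lowest among the tiles named here. On chromosome 5 from 134742001 to 134743000, K36M stood at 20.3% and 19.7%, WT at 77.9% and K9M at 61.0% and 59.6%. On chromosome 8 from 122855001 to 122856000, K36M stood at 25.4% and 28.7%, WT at 75.2% and K9M at 82.0% and 86.9%. In both tiles 1 CpG did not follow the others, with 14 of 15 and 10 of 11 CpGs lower in both K36M libraries.

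Among tiles with 20 to 39 CpGs, 2 of the 3 largest losses were neighbours on chromosome 11, and K9M did not follow WT there. From 5906001 to 5907000, K36M stood at 15.1% and 10.9%, WT at 66.1% and K9M at 22.4% and 46.2%. Each K9M level there rests on 23 of the 28 CpGs. From 5907001 to 5908000, K36M stood at 14.7% and 13.0%, WT at 55.0% and K9M at 13.9% and 31.98%. All 28 and 36 CpGs of the 2 tiles were lower in both K36M libraries than in WT, but in the second tile K9M replicate 1 was as low as K36M, so WT was the highest of the 5 libraries. The tile on chromosome 19 from 5757001 to 5758000 was at 71.3% in WT, 30.1% and 17.8% in K36M, and the K9M libraries stood at 68.8% and 66.7%, with all 30 CpGs lower in both K36M libraries. Adjusted p-values in the limma-moderated logistic model were 9.67e-09 and 1.01e-08 on chromosome 11 and 4.87e-06 on chromosome 19.

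The 3 largest of the 18 called losses with 40 or more CpGs left intermediate levels. On chromosome 17 from 26576001 to 26577000, with 45 CpGs, WT was at 97.6% (95% counting interval 92.0% to 104%), K36M at 49.5% and 52.5% and K9M at 98.1% and 93.6%. The median CpG there was at 98.6% in WT and at 50.9% and 52.8% in K36M, and each of the 45 CpGs was lower in both K36M libraries. This call was lost with limma on relative levels, at an adjusted p of 0.1002, against 1.11e-05 in the limma-moderated logistic model. On chromosome 7 from 25162001 to 25163000, with 47 CpGs, K36M stood at 32.5% and 29.9%, WT at 67.01% and K9M at 85.3% and 85.7%. The tile of 54 CpGs on chromosome 5 from 108150001 to 108151000 spans 945 bp between its outer CpGs, and K36M stood at 31.6% and 24.7%, WT at 62.8% and K9M at 85.3% and 90.6%. In these last 2 tiles WT lay between K36M and K9M, outside the spread of either pair. On chromosome 5, K9M replicate 2 rests on 38 of the 54 CpGs, so its level covers another set of CpGs than that of WT. All 3 tiles are methylated dense DNA, 24, 78 and 147 kb from the nearest island-like tile.

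**Figure D4:**
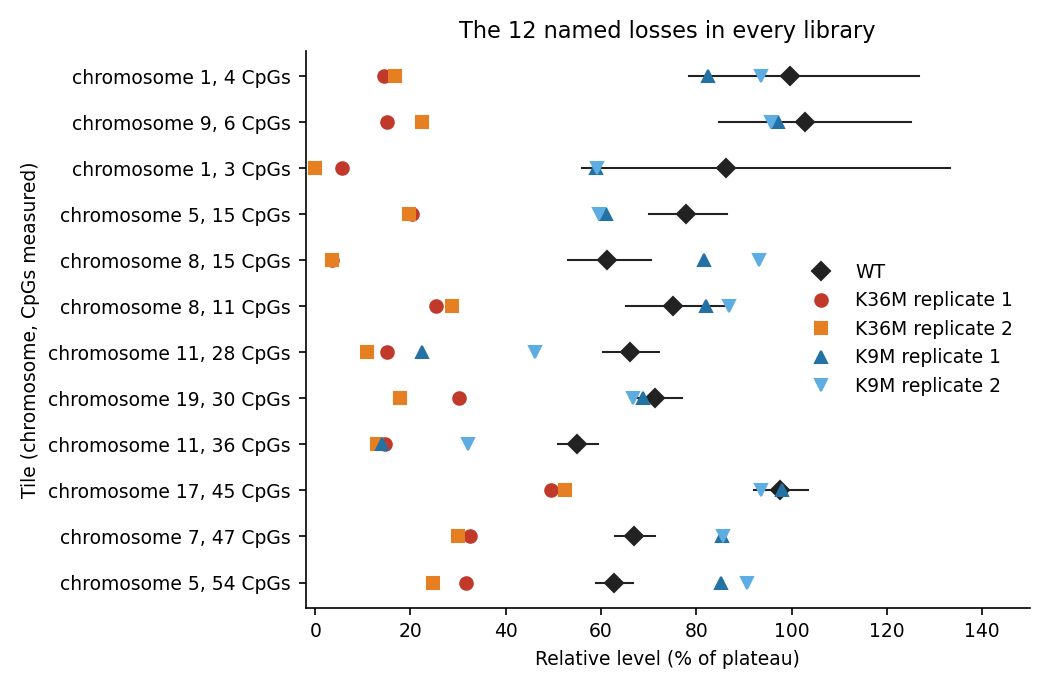
Relative level (percent of plateau, x axis) in each library at the 3 largest called losses of each class of CpG number (y axis), with the 95% counting interval of WT as a line. The K36M points lie to the left of WT in all 12 tiles, and K9M lies away from WT and towards K36M most clearly at the 2 tiles of chromosome 11.

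Most called losses had no other called loss within 5 kb. Coverage limits this, since 659 uncalled tiles were measured 1 kb from the 1350 losses. A tile that was not measured could not extend a run. Called losses whose starts were at most 5 kb apart were joined into runs, which gave 1257 runs, of which 1176 held 1 tile, 73 held 2, 4 held 3 and 4 held 4. On chromosome 13 from 102461001 to 102466000, 3 of 4 measured tiles were called. They averaged 36.5% in WT, 0.994% and 1.37% in K36M, and the K9M libraries stood at 38.0% and 31.3%. The fourth tile lies between them, holds 37 CpGs, and stood at 0.700% in WT and 0.786% and 0.356% in K36M. This was a nearly complete loss on both sides of a CpG-dense tile that was unmethylated in WT, K36M and K9M, with K9M at 0.834% and 0.695%. With 37 CpGs, that tile was not island-like as defined above, and the nearest island-like tile lay 73 kb away. The lost tiles beside it therefore fell in the class beyond 64 kb. The 2 measured tiles within 10 kb on either side stayed methylated, at 90.9% in WT and 81.3% and 76.3% in K36M.

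The other long runs had 4 called tiles each. On chromosome 5 from 124664001 to 124672000, the called tiles averaged 56.6% in WT, 24.6% and 23.1% in K36M, and the K9M libraries stood at 51.8% and 54.1%. On chromosome 6 from 52153001 to 52160000, 4 of 4 measured tiles with 111 CpGs were called, and they averaged 53.6% in WT, 35.0% and 31.8% in K36M, and the K9M libraries stood at 58.5% and 63.3%. A tile of 48 CpGs in this run was at 77.3% in WT and 57.7% and 56.4% in K36M, and another of 42 CpGs at 20.7% in WT and 7.37% and 6.70% in K36M. On chromosome 11 from 117178001 to 117184000 the averages were 28.3% in WT, 8.05% and 8.72% in K36M, and the K9M libraries stood at 29.7% and 36.1%. On chromosome 15 from 76287001 to 76297000 they were 34.6% in WT, 15.9% and 18.0% in K36M, and the K9M libraries stood at 46.0% and 42.3%. In all 5 runs the 2 K36M libraries lay below WT and below both K9M libraries. The K36M libraries differed from each other by less than either differed from WT. These averages cover called tiles only, whose WT and K36M values were used to call them, so both statements are a description. The runs held levels from low to high, so that a run was not a stretch of one level.

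The gains were few and less even between libraries than the losses. The 2 K36M libraries were at least 10 points apart at 32.7% of gains and at 8.74% of losses. The share was 28.5% over all tiles and 24.1% at those with 20% to 80% in K9M, so gains stood near it. The spread of this pair entered the calls, and whether level accounts for the lower share at losses was not tested. The largest gains with 3 to 9 CpGs lay on chromosome 7. From 70947001 to 70948000, K36M stood at 103% and 93.9%, WT at 48.1% and K9M at 0.671% and 43.8%, so that the K9M libraries also differed from each other. From 31930001 to 31931000, K36M stood at 91.9% and 91.6%, WT at 42.0% and K9M at 102% and 101%, with WT alone low. With 10 to 19 CpGs, the tile on chromosome 9 from 88448001 to 88449000 reached 417% and 347% in K36M against 160% in WT. Levels so far above the plateau cannot be read as methylation, and 58 of all tiles exceeded 150% in any of the 3 libraries. The second lies on chromosome 12 from 70260001 to 70261000. It was at 79.9% in WT, 130% and 103% in K36M, and the K9M libraries stood at 82.9% and 21.04%. Its median CpG was at 29.2% in WT and at 31.01% and 33.01% in K36M. Its highest CpG reached 165% in WT and 460% and 302% in K36M, too far above the plateau to be read as methylation. Of its 15 CpGs, 9 were higher and 3 lower in both K36M libraries than in WT. The only gain with 20 to 39 CpGs, on chromosome 12 from 3235001 to 3236000, stood at 1.75% in WT and rose to 8.64% and 18.8% in K36M, with K9M at 10.04% and 2.89%, and all 36 CpGs were higher in both K36M libraries. With limma on relative levels, none of the 5 named gains was called, the adjusted p being 0.0949 at the lowest. With K9M kept for the spread, 4 of these 5 lost their call without K36M replicate 1 and 5 without replicate 2, while the 12 named losses kept theirs in both fits.

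The loss at tiles of middle level was seen on every autosome. At tiles with 20% to 80% in K9M, the mean difference from WT ran from -4.42 points on chromosome 18 to -6.83 points on chromosome 11. The 2 K36M libraries differed by less than 1 point from each other on each of them. Called losses were spread less evenly, from 4.39 per 1000 tested tiles on chromosome 1 and 4.603 on chromosome 13 to 11.9 on chromosome 17 and 13.9 on chromosome 11. Of 238 windows of 10 Mb with at least 300 tiles, 40 held no called loss, and the median window had 5.995 per 1000. The highest rate, 29.8 per 1000, was in the last window of chromosome 11, from 120000001, where 9 of 302 tiles were called, and the window of the same chromosome from 90000001 followed with 28 of 1249. The mean difference of middle-level tiles was below 0 in both K36M libraries in 225 of the 238 windows.

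**Figure D5:**
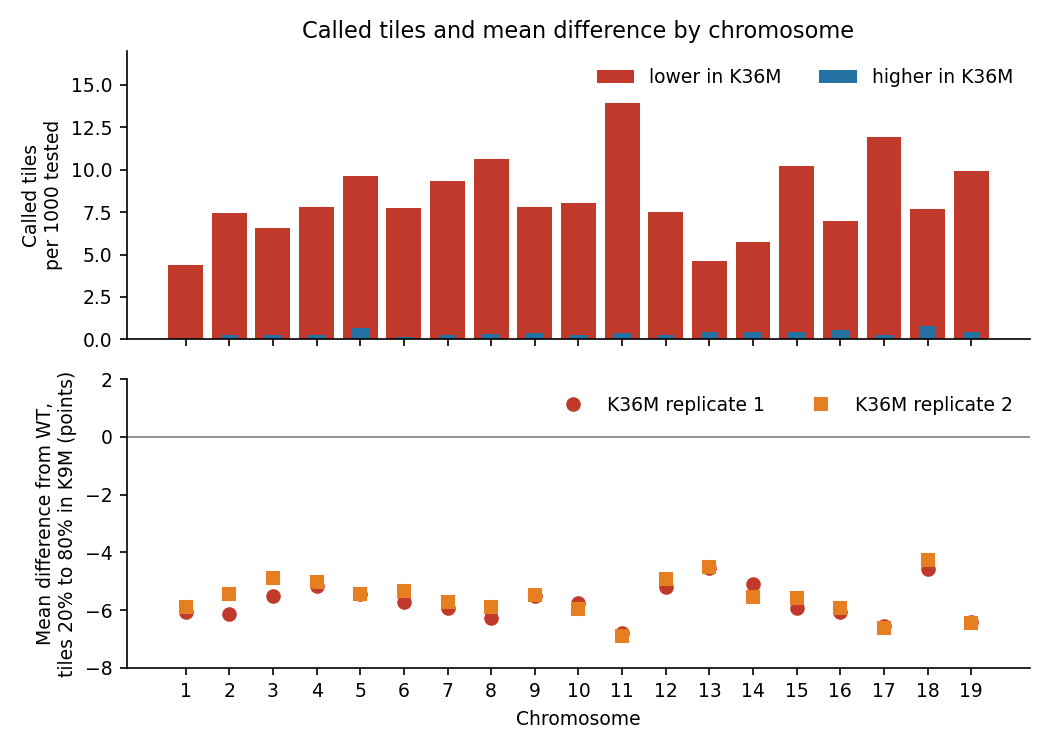
Called tiles per 1000 tested (upper panel) and mean difference from WT at tiles with 20% to 80% in K9M (points, lower panel, 1 point per K36M library) on each autosome. Bars for losses exceed those for gains on all 19 chromosomes, and all differences in the lower panel lie between -7 and -4 points.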

How the data were processed

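Per the labels' protocols, libraries came from a NuGen RRBS kit with Qiagen bisulfite conversion. Adapter trimming (cutadapt), alignment (BSMAP) and the build mm9 are listed without versions in the submitters' processing notes. Each deposited file gives a fraction and a total count per CpG. The sources used here do not give how the authors made the fraction or treated duplicate reads. The methylated count m is the rounded product of both, and the second count is the total minus m (the total itself for K9M replicate 2, whose deposited fraction is on another scale). A tile's level in a K9M library covers only those of its CpGs whose second count was 10 or higher in that library. Positions are mm9, counted from 1. In the 3-library fit (R 4.3.3, limma 3.58.1), a logistic model of m and second count had the log plateau as offset, and a quasi-binomial dispersion with 1 residual degree of freedom, from the K36M pair, was moderated with squeezeVar and held at or above 1. WT is assumed to vary like K36M, and CpGs on shared reads were summed as if independent. The fit also treats m and the second count as separate reads, which was not tested. edgeR 4.0.16 was an alternative. The fit was run on simulated data in which 100 tiles had 2-fold and 100 had 4-fold lower odds in K36M. It called 44% and 95% of them, and 5 of the unchanged tiles. WT was simulated with the spread of the K36M pair, so the simulation cannot test whether WT varies like K36M. Within each class of CpG number (3 to 9, 10 to 19, 20 to 39, 40 or more) the 3 largest losses and 2 largest gains were named, with the 5 runs holding most called losses. The members and classes were chosen with earlier results of these data known. Depth is given as totals and second counts per CpG.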

Additional observations from a re-analysis of the deposited data

How the results depend on the processing

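Losses outnumbered gains under each test of 1 kb or 500 bp tiles, with 94.2% to 97.8% of calls lower in K36M, while their number depended on the spread assumed. The 1350 lower and 55 higher tiles became 884 and 28 with tiles of 500 bp, 825 and 33 when the top 40% of tiles set the plateau, and 697 and 19 with all 5 libraries in 1 fit, where fewer tiles were tested. With no floor on the dispersion they became 2134 and 111. Higher tiles numbered 106 with edgeR's quasi-likelihood test, whose 2020 lower tiles included 1348 of the 1350, 27 with limma on relative levels, which called 1216 lower tiles and 883 of the 1350, and 28 at 20 points or more. Single CpGs gave 0 and 0 calls by the same logistic model moderated with limma. Of the 1861472 tested, 3149 were lower and 135 higher at an unadjusted p under 0.05 in that model. Leaving out either K36M replicate, with K9M kept for the spread, gave 342 to 520 lower and 9 to 32 higher tiles. WT has no replicate and could not be left out. The labels number the replicates, but WT and K36M share only 1 number. A replicate block over all 5 libraries called 354 lower and 8 higher tiles. The differences of K36M replicate 1 from 2 and of K9M replicate 1 from 2 had a correlation of 0.0747 across 152760 tiles. A weak correlation cannot show that samples with the same number were prepared apart.

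The pooled difference of -1.24 points was -1.36 at a coverage minimum of 20 and -1.38 without the 1% deepest tiles. Over the same CpGs as in the main result, it was -1.40 when tiles with at least 5 CpGs set the plateau. It was -0.710 and -1.65 when the top 40% and top 10% of tiles set the plateau. The pooled difference was -0.547 as deposited, -1.16 as a mean of CpGs, and -1.28 to -1.20 without 1 K36M replicate. At tiles with 20% to 80% in K9M, -5.69 points became -5.89 with tiles of 500 bp, -5.20 and -6.08 with the top 40% and top 10%, -2.84 as deposited, where full methylation is near 55%, and -5.31 with K9M replicate 1 alone as reference. Without 1 K36M replicate it was -5.77 to -5.61. Tiles with 3 to 9 CpGs went from -2.91 points to -1.92 with the top 40% and -0.981 as deposited, and from -3.58 to -2.23 without 1 replicate. Tiles with 40 or more CpGs had the other sign, -0.0185 points, with the top 10%, and ran from -0.0310 to 0.125 without 1 replicate. The cause of these shifts was not tested. An alternative chosen after seeing the data, without tiles over 120% of the plateau, left 1350 lower and 52 higher. Precision is limited by 1 WT library and a median second count per CpG of 33 to 42.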
